A study of Mus musculus with 48 samples.

Results

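Spaceflight was compared with ground control in the frontal cortex (FCT) of mice that had received BuOE, in 6 areas of illumination (AOIs) out of the 48 in the series. The 3 AOIs of slide FLT_TX_2 (group FLT-BuOE) were set against the 3 AOIs of slide GC_TX_2 (group GC-BuOE), with 1 AOI from each of 6 mice, and all 15782 genes of the FCT table were tested. FLT-BuOE mice were C57BL/6 males, aged 10 weeks, that lived for 35 days on the International Space Station. BuOE (MnTnBuOE-2-PyP5+) was injected under the skin at 1 mg/kg in 0.2 mL, first 7 days before launch and then once a week, and return to the laboratory took no more than 20 h after splashdown. GC-BuOE mice had the same strain, sex, age, food, light cycle, injections and ketamine/xylazine anesthesia, but stayed on Earth in flight hardware cages for 35 days, on a schedule that ran 3 days behind. The flight condition therefore included launch, orbit, landing, splashdown and transport, which these groups do not separate. The saline groups FLT-SAL and GC-SAL, 3 mice each and without BuOE, entered the same fit and are given beside the BuOE groups. Each group's 3 brains lay on a single slide. Slide and group therefore cannot be told apart, and p-values measure the spread between mice within a slide.

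Digital spatial profiling counts the tags of DNA probes that UV light releases from a chosen area of a tissue section, so each value is a bulk level over all cells of that area. The frontal cortex serves attention, planning and working memory, and holds glutamatergic pyramidal neurons in layers, GABAergic interneurons, glia and vessels. When pyramidal neurons fire, calcium and cAMP signals switch on immediate early genes within minutes, among them Fos and Jun family members that pair into the AP-1 transcription factor. Heat shock and chaperone genes refold damaged proteins and are induced by heat and proteotoxic stress through heat shock factor, whereas the RNA-binding proteins Cirbp and Rbm3 are induced by mild cooling. BuOE, a porphyrin holding manganese, acts like superoxide dismutase, the enzyme that removes superoxide.

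Promoter sequences are shown for 3 genes that the results below turn on, because each window holds a motif of one of these programs. They are the 250 bases before the RefSeq start site in GRCm38.p6, all on the minus strand, and 86 of the 119 named genes had an entry. Capitals mark matches to the short cAMP response element TGACG, the AP-1 site TGANTCA, the heat shock element pair GAANNTTC and the CCAAT box CCAAT, searched on both strands.
Ptgds, chr2:25469750-25469999: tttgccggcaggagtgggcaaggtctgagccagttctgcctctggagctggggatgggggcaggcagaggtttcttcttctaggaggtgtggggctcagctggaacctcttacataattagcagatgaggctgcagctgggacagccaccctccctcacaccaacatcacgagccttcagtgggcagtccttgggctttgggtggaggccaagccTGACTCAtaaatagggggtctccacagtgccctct
Junb, chr8:84978749-84978998: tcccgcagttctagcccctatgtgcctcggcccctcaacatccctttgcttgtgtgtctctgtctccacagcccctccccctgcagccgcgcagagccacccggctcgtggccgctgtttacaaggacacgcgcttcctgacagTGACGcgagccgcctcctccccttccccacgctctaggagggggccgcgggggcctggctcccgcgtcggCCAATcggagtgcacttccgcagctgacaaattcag
Hspa1a, chr17:34972157-34972406: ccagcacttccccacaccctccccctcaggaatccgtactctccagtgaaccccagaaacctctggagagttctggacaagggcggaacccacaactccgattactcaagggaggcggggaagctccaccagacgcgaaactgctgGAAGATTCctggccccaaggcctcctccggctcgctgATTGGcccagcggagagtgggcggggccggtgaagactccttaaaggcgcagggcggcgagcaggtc
In Ptgds the capitals are an AP-1 site at bases 35 to 29 before the start. Junb holds a short cAMP response element at bases 106 to 102 and a CCAAT box at bases 36 to 32. Hspa1a holds a heat shock element pair at bases 104 to 97 and, on the opposite strand, a CCAAT box at bases 67 to 63. Of 32851 RefSeq windows of this length, 17.8% hold TGACG, 6.75% TGANTCA, 6.69% GAANNTTC and 33.8% CCAAT, so a match describes the letters and is not evidence of binding. Among the 18 heat shock genes measured, 14 had an entry, and 6 had the heat shock element pair in at least 1 window.

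The flight AOIs were smaller than the ground AOIs, and their depths overlapped. Total counts ran from 484300 to 793099 in FLT-BuOE and from 654566 to 966414 in GC-BuOE, from areas of 145393 and of 163177 to 173293 square micrometers with 432 to 474 and 466 to 524 nuclei. After upper quartile (Q3) normalization the negative control probes stood at 12.1 to 13.0 in FLT-BuOE and at 13.1 to 14.5 in GC-BuOE, so the groups did not overlap in background, and a Q3-normalized count near 13 is background. Between 82.4% and 88.3% of genes lay above 1.5 times the negative control in these 6 AOIs. In the saline groups the negative control stood at 15.2 to 18.0 in FLT-SAL and at 12.8 to 15.9 in GC-SAL. Genes above 1.5 times it were 68.6% to 75.8% and 73.7% to 85.2%, from areas of 198761 and 146259 square micrometers. The effect of this on values set beside saline, the interaction included, was not tested. Markers of the labelled tissue were present: the pyramidal neuron genes Nrgn, Camk2a and Slc17a7 averaged 147, 44.3 and 17.1 times the negative control in FLT-BuOE and 106, 37.2 and 15.4 times in GC-BuOE. Probes differ in how well they bind, so levels are compared between mice and not between genes.

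In the BuOE-treated frontal cortex, 3 genes differed between flight and ground. Ptgds and Junb rose and Gm1043 fell. They are 0.019% of the 15782 genes tested (0.0127% higher and 0.00634% lower), by limma on log2(Q3-normalized count + 1) at an adjusted p below 0.05 and a change beyond 1.5-fold. At an unadjusted p below 0.05, 1131 genes (7.17%) differed, 300 (1.9%) with higher and 831 (5.27%) with lower values in flight, and 42.9% of all genes had a log2 change above 0. The groups did not overlap for 11.0% of genes, 3.71% with flight higher and 7.25% with flight lower. This lean toward lower values depended on the scaling: flight was higher in 26.5% of genes at that p with Q3 normalization, against 45.1% after quantile normalization, 43.6% after subtracting the negative control, 47.7% with edgeR and 52.7% with DESeq2. It was also strongest among genes near background. The median log2 change was -0.08 in the 3946 genes with the lowest means (12.1 to 22.7) and -0.02 in the 3946 with the highest (39.2 to 5419), against -0.04 over all genes.

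**Figure D1:**
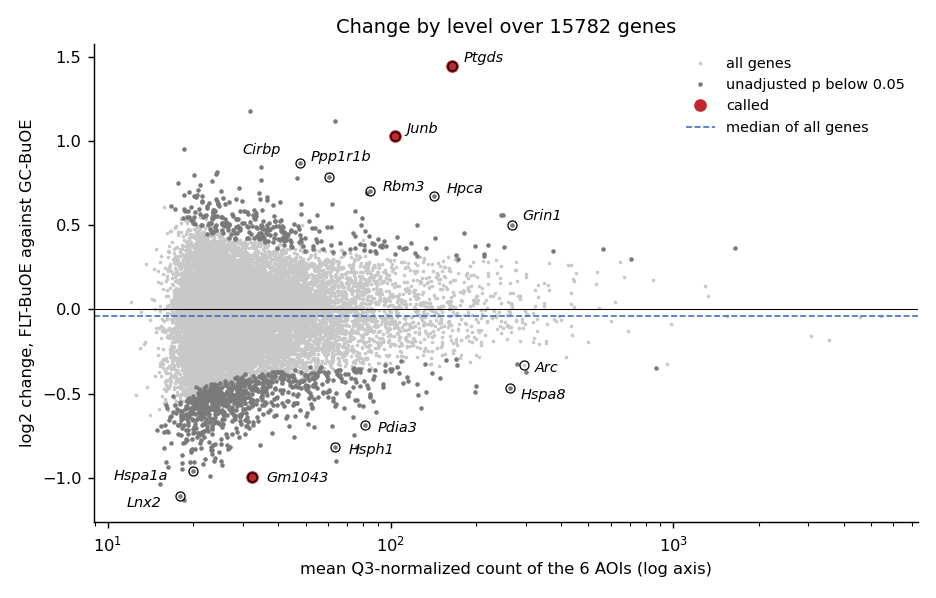
Each dot is 1 of 15782 genes, with its mean Q3-normalized count over the 6 AOIs on a log axis and its log2 change, FLT-BuOE against GC-BuOE, on the vertical axis; dark dots have an unadjusted p below 0.05, red dots are the 3 called genes, and the dashed line is the median over all genes (-0.04). Ptgds and Junb stand above the other genes of similar level, and most dark dots at low level lie below 0.

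Ptgds encodes lipocalin-type prostaglandin D2 synthase, made mainly by the meninges, the choroid plexus and oligodendrocytes (GRCm38 chr2:25466709-25470046, minus strand). Its Q3-normalized count was 252, 247 and 214 in FLT-BuOE mice 1, 2 and 3 and 107, 48.2 and 124 in GC-BuOE mice 1, 2 and 3. Every flight mouse exceeded every ground mouse, and GC-BuOE mouse 2 was the lowest. The means were 238 ± 20.6 (SD, n = 3) and 93.0 ± 39.7 (SD, n = 3), 18.8 and 6.83 times the negative control. The log2 change was 1.45 (SE 0.21, 95% interval 1.02 to 1.88, limma adjusted p = 0.000362), a 2.73-fold rise. Without GC-BuOE mouse 2 it was 1.04 with an adjusted p of 0.0254. The call was lost with DESeq2 (adjusted p = 0.691) and without the mean-variance trend (adjusted p = 0.153). It is one of the genes the study named for frontal cortex, in FLT-SAL against GC-SAL.

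Junb encodes JunB, a subunit of AP-1 that neuronal activity induces (GRCm38 chr8:84974484-84978718, minus strand). FLT-BuOE mice had 140.1, 145 and 133, and GC-BuOE mice had 82.2, 59.3 and 63.7. The 3 flight mice lay close together, above every mouse of the other groups, since FLT-SAL mice had 63.5, 52.9 and 61.2 and GC-SAL mice 94.8, 68.3 and 73.0. Mean levels were 139 ± 6.24 and 68.4 ± 12.2 (SD, n = 3 each), 11.0 and 5.02 times the negative control. The log2 change of 1.03 (SE 0.16, 95% interval 0.70 to 1.35, adjusted p = 0.00079) is a 2.04-fold rise. It remained called when any 1 of the 12 mice was left out, with log2 changes of 0.93 to 1.17, and was lost without the mean-variance trend (adjusted p = 0.136).

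Gm1043 is a predicted protein-coding gene (GRCm38 chr5:37085370-37229547, plus strand), and its level was low. It stood at 20.0, 24.9 and 18.8 in the FLT-BuOE mice and at 44.3, 50.4 and 35.5 in the GC-BuOE mice. The groups did not overlap, and the flight mean was 1.68 times the negative control against 3.19 times on the ground. The log2 change was -0.99 (SE 0.20, adjusted p = 0.0467), 0.502 of the ground level on the log2(value + 1) scale. This call was the least stable of the 3: 7 of 10 other settings and 9 of the 12 fits that left out 1 mouse put its adjusted p above 0.05, while its log2 change kept its sign in all of them (-1.70 to -0.77). The call was kept without FLT-BuOE mouse 2, GC-BuOE mouse 3 or GC-SAL mouse 3, and without GC-BuOE mouse 2 the adjusted p was 0.374.

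**Figure D2:**
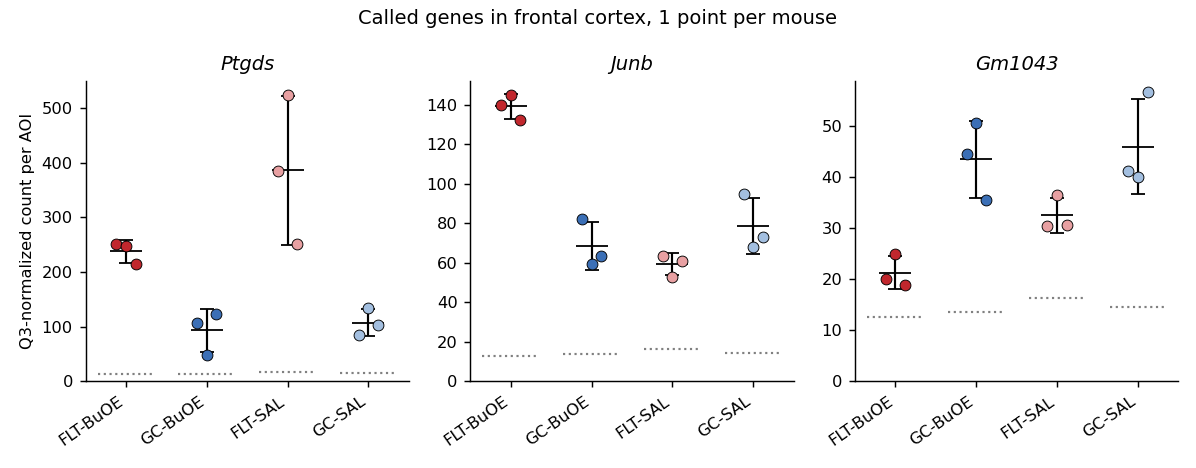
Q3-normalized counts of the 3 called genes, 1 point per mouse in the 4 groups, with bars for the mean ± SD and a dotted line for the mean negative control of the group. FLT-BuOE lies above GC-BuOE for Ptgds and Junb and below it for Gm1043 without overlap, and for Junb it lies above the saline groups too.

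The next 10 genes had the smallest p values among uncalled genes without overlap whose higher mean exceeded 1.5 times the negative control. None of the 10 passed, and their values are given as such. Of them, 4 were higher in flight and 6 lower. Rbm3 and Cirbp, the cold-inducible RNA-binding genes, were among the higher. Rbm3 stood at 110.1, 111 and 93.8 in flight and 63.8, 68.2 and 60.0 on the ground (log2 change 0.70, SE 0.15, adjusted p = 0.0933), and Cirbp at 52.9, 82.7 and 52.5 and 35.7, 31.9 and 31.8 (0.87, SE 0.19, adjusted p = 0.11). Lack of overlap was a condition of this choice, and edgeR called Cirbp (adjusted p = 0.0329). The other higher genes act in neurons: Hpca encodes hippocalcin, a neuronal calcium sensor, and Ppp1r1b encodes DARPP-32, a phosphatase inhibitor in dopamine signaling. Hpca had 183, 181 and 158 in flight against 122, 119 and 88.2 on the ground (0.67, adjusted p = 0.143), and Ppp1r1b 75.8, 80.0 and 72.5 against 59.5, 38.5 and 36.4 (0.79, adjusted p = 0.234).

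The 6 lower genes include chaperones. Hsph1, the nucleotide exchange factor Hsp110 of the Hsp70 machine, had 48.6, 40.9 and 46.3 in flight and 84.4, 64.5 and 95.5 on the ground (-0.82, SE 0.17, adjusted p = 0.0824). Pdia3, a disulfide isomerase of the endoplasmic reticulum (ER), had 60.0, 60.5 and 65.0 and 101, 91.9 and 108 (-0.69, adjusted p = 0.128). The inducible Hsp70 gene Hspa1a had 12.9, 14.2 and 12.5 and 28.1, 23.0 and 29.1 (-0.96, adjusted p = 0.234), so that flight was at the negative control (1.04 times) and the ground at 1.96 times. Hspa1a and Hspa1b are near-identical copies, so which of them the probe read is uncertain. Tmem151b, Lnx2 and Mok complete the set, at log2 changes of -0.74, -1.11 and -0.99 (adjusted p = 0.0933, 0.143 and 0.234), and the flight means of Lnx2 and Mok were only 0.885 and 1.24 times the negative control.

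Heat shock genes leaned lower in flight as a list. None of the 18 measured was called. At an unadjusted p below 0.05, 9 were lower, against 5.27% of all genes, and none was higher, against 1.9%. Their median log2 change was -0.35 (all genes -0.04), and only Hspa4 was above 0. The groups did not overlap, with flight lower, for 10 of the 18, against 7.25% of all genes. Summed over the list, Q3-normalized counts were 1126 to 1307 in FLT-BuOE and 1497 to 1695 in GC-BuOE, without overlap. The median stayed between -0.50 and -0.29 over all settings and over all fits that left out 1 mouse, those with other scalings included. In saline mice the same sums were 1254 to 1389 in FLT-SAL and 1503 to 1615 in GC-SAL, also without overlap, with a median log2 change of -0.23 and 5 members lower at an unadjusted p below 0.05, against 1.98% of all genes there.

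Hspa8 encodes the constitutive Hsp70, which serves protein folding and clathrin uncoating. It stood at 193, 227 and 244 in the flight mice and 357, 306 and 259 in the ground mice (-0.47, SE 0.15, adjusted p = 0.427). Hsp90aa1 and Hsp90ab1, the cytosolic Hsp90 genes, had log2 changes of -0.18 and -0.27, and the Hsp40 cochaperone Dnaja1 of -0.25, none of them at an unadjusted p below 0.05. Further cochaperones had lower values. Dnajb1 stood at 20.0, 26.7 and 23.8 in flight against 32.5, 38.5 and 41.8 on the ground (-0.66). Dnajb5 stood at 64.3, 70.3 and 73.8 against 109, 88.2 and 102 (-0.51). Stip1, which links Hsp70 to Hsp90, had 24.3, 35.6 and 26.3 against 45.4, 38.5 and 40.9 (-0.54). In none of the 3 did a flight mouse reach a ground mouse. The small heat shock protein Cryab varied more on the ground, at 90.9, 58.6 and 134 against 50.0, 61.4 and 70.0 in flight (-0.57, adjusted p = 0.531), and its groups overlapped through GC-BuOE mouse 2. The mitochondrial chaperonin Hspd1 (-0.39) and the Hsp90 cochaperone Chordc1 (-0.47) were the remaining members at that p.

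The unfolded protein response list, the chaperones and regulators of the ER, had 13 measured members, none called. Calr, the calcium-binding lectin chaperone, stood at 55.7, 48.9 and 58.8 in flight and 83.3, 80.0 and 82.8 on the ground (-0.59, adjusted p = 0.355). Hsp90b1, the ER Hsp90, stood at 45.7, 80.0 and 62.5 in flight and 84.4, 97.1 and 87.3 on the ground (-0.54). The disulfide isomerase Pdia6 stood at 54.3, 50.7 and 46.3 and 89.8, 67.4 and 66.4 (-0.54). Those 3 were lower at an unadjusted p below 0.05 (5.27% of all genes) and did not overlap (7.25% of all genes with flight lower). The ER Hsp70 Hspa5 (-0.13) and the stress transcription factor Xbp1 (-0.14) showed smaller differences. The list's median was -0.15 (-0.22 to -0.10 over the settings and the fits without 1 mouse) with 1 member, Ddit3, above 0, and its summed count was 503 to 520 in FLT-BuOE against 595 to 667 in GC-BuOE. Under saline its median was -0.27, with 5 members lower and 1 higher at that p, against 1.98% and 3.69% of all genes.

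**Figure D3:**
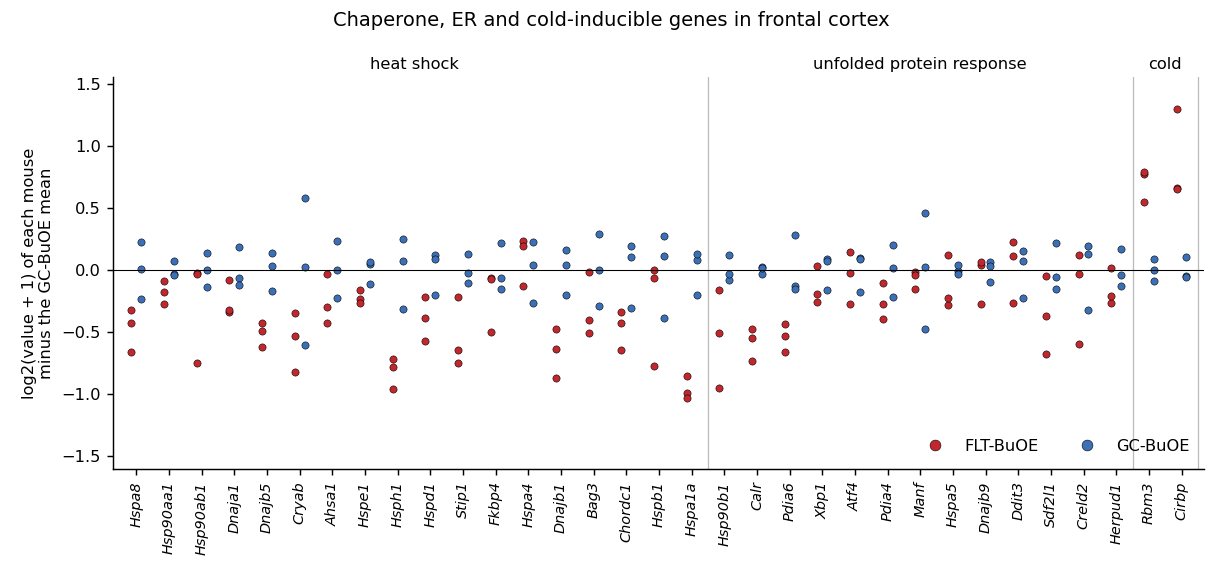
Each point is 1 mouse's log2(Q3-normalized count + 1) minus the GC-BuOE mean of that gene, red for FLT-BuOE and blue for GC-BuOE, for the heat shock, unfolded protein response and cold-inducible lists. Red points lie mostly below the blue ones for heat shock genes and above them for Rbm3 and Cirbp.

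Of 25 immediate early genes, 1 was called, Junb. Ier2, a nuclear immediate early protein, stood at 24.3, 25.8 and 25.0 in flight and 14.1, 14.1 and 18.2 on the ground (0.67, adjusted p = 0.531), without overlap, but at 1.98 and 1.13 times the negative control. Egr1, a zinc finger activator used as a marker of neuronal activity, stood at 187, 235 and 188 and 235, 88.2 and 154 (0.45, adjusted p = 0.691), with GC-BuOE mouse 1 level with the highest flight mouse. Those were the members besides Junb with higher values at an unadjusted p below 0.05, 3 in all, where 1.9% of all genes were. Homer1 (-0.57), whose short form remodels postsynaptic receptors, Fosl2 (-0.57), an AP-1 subunit, and Dusp6 (-0.44), a phosphatase of ERK, were the lower ones, where 5.27% of all genes were. The median of the list was -0.07, and it ran from -0.14 to 0.01 over the settings and the fits without 1 mouse, so the sign of the list's median did not hold.

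The other Fos and Jun genes had smaller log2 changes than Junb. Jund, the constitutive Jun, stood at 260.1, 275 and 256 in flight and 263, 245 and 261 on the ground (0.04, 95% interval -0.24 to 0.32). The log2 change was 0.00 (-0.38 to 0.39) for Jun, 0.30 (-0.15 to 0.75) for Fos and -0.06 (-0.50 to 0.37) for Fosb. For these 4 genes the intervals lie below the estimate for Junb, and the difference between genes was not tested. Among further activity genes, log2 changes were -0.24 for Egr3, 0.22 for the nuclear receptor Nr4a1, -0.07 for the neuronal activity factor Npas4 and -0.14 for the neurotrophin Bdnf, none at an unadjusted p below 0.05.

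Arc, an immediate early gene of the synapse that regulates AMPA receptor uptake, was not called under BuOE. It stood at 256, 224 and 260.1 in the FLT-BuOE mice and 518, 156 and 366 in the GC-BuOE mice. The ground mice differed widely among themselves, with mouse 2 under every flight mouse and mouse 1 above all others. The log2 change was -0.33 (SE 0.23, 95% interval -0.80 to 0.14, adjusted p = 0.807), and leaving out 1 mouse gave -0.82 to 0.04. In saline mice Arc fell, from 364, 176 and 373 in GC-SAL to 89.2, 61.5 and 66.6 in FLT-SAL (-2.00, adjusted p = 6.85e-07). The interaction, the flight difference under BuOE minus that under saline, was 1.67 (SE 0.33, adjusted p = 0.0683), which did not pass. It passed after quantile normalization (adjusted p = 0.0456) and with edgeR (adjusted p = 0.0165), and when GC-BuOE mouse 1 (2.04), GC-SAL mouse 2 (2.02) or FLT-SAL mouse 1 (1.82) was left out.

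Junb was the only gene whose interaction passed, 0.00634% of 15782. Its flight difference was 1.03 under BuOE and -0.39 under saline (adjusted p = 0.762), and the interaction was 1.42 (SE 0.23, 95% interval 0.96 to 1.89, adjusted p = 0.0025). It passed in all 12 fits that left out 1 mouse, with adjusted p up to 0.0453, and was lost without the mean-variance trend (adjusted p = 0.387). Ptgds moved the same way in both: FLT-SAL mice had 384, 524 and 250.5 and GC-SAL mice 85.3, 133 and 102, a log2 change of 1.80 (adjusted p = 6.85e-07), with an interaction of -0.35 (95% interval -0.96 to 0.26). Gm1043 had -0.47 under saline, where it was not called, and an interaction of -0.52 (adjusted p = 0.901).

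**Figure D4:**
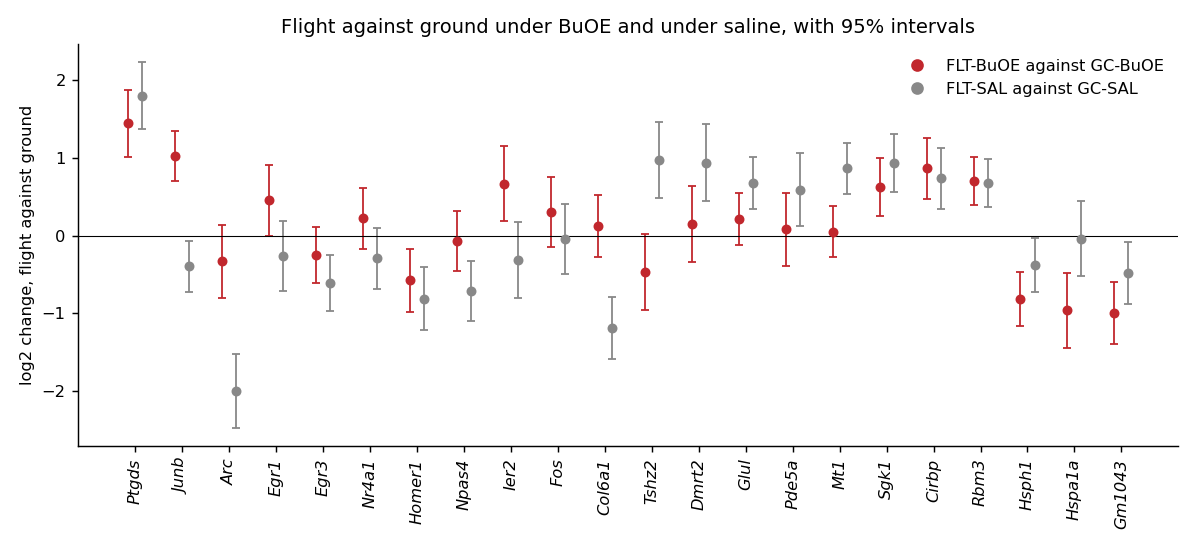
Log2 change of flight against ground in frontal cortex for 22 genes named in the text, red under BuOE and grey under saline, with 95% intervals from the limma fit. The intervals of Ptgds lie above 0 under both treatments, those of Junb lie on opposite sides of 0, and Arc and Col6a1 are below 0 under saline with intervals that include 0 under BuOE.

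The genes that the study named for frontal cortex, from FLT-SAL against GC-SAL, and those called here in saline mice, are given side by side. In saline, 8 genes were called (0.0507%): Ptgds, Mt1, Sgk1, Nsg1 and Coro6 rose (0.0317%), and Arc, Scg2 and Col6a1 fell (0.019%). Under BuOE, of these 8 only Ptgds was called. Mt1, a metallothionein that binds zinc and scavenges radicals, stood at 134, 205 and 156 in FLT-BuOE and 148, 162 and 161 in GC-BuOE (0.05, 95% interval -0.28 to 0.38), and its saline change was 0.87 (adjusted p = 0.011). Col6a1, a collagen VI chain, stood at 48.6, 74.7 and 104 and 53.0, 68.2 and 80.0 (0.13), beside -1.18 in saline (adjusted p = 0.00206). Their interactions were -0.82 and 1.31 with adjusted p of 0.9 and 0.158, so neither difference between treatments passed in the main limma fit. That of Col6a1 passed after quantile normalization (adjusted p = 0.0456) and with edgeR (adjusted p = 0.0252), and in the fits without FLT-BuOE mouse 1 (1.59) or FLT-SAL mouse 3 (1.52). Sgk1, a kinase induced by glucocorticoids, was 0.63 under BuOE and 0.93 under saline. The log2 changes under BuOE of Nsg1, Coro6 and Scg2, which act in neuronal endosomes, at actin filaments and in secretory granules, were 0.25, 0.36 and -0.33, beside 0.81, 0.98 and -0.98 under saline.

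Among the study's other frontal cortex genes, Tshz2, a zinc finger factor, stood at 27.2, 17.8 and 11.3 in FLT-BuOE and 19.5, 29.6 and 26.4 in GC-BuOE (-0.47), beside 0.97 in saline. Its interaction was -1.44 (limma adjusted p = 0.512), and it passed in the fit without FLT-BuOE mouse 1 (-1.73, limma adjusted p = 0.0212). Glutamine synthetase, Glul, an astrocyte enzyme, stood at 204, 289 and 219 and 207, 216 and 186 (0.21), beside 0.68 in saline. The transcription factor Dmrt2 and the phosphodiesterase Pde5a had log2 changes of 0.15 and 0.08 under BuOE, beside 0.94 and 0.59 under saline. Rbm3 and Cirbp were at 0.68 and 0.74 in saline, where neither was called, with interactions of 0.02 (95% interval -0.41 to 0.46) and 0.13 (-0.42 to 0.68). Over all genes, whose 2 contrasts share no mice, the log2 changes had a Pearson correlation of 0.08 across genes. At an unadjusted p below 0.05, 97 genes were in both contrasts, 8.58% of the 1131 under BuOE and 10.9% of the 894 under saline (5.66% of all genes). Of the 97, 83 had the same sign, against 51.1% of all genes. Both contrasts took each gene's variance from the same fit, so passing in both was not independent.

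Markers of the cell types that an AOI can hold are given next, since in bulk tissue fewer cells of a type and less RNA per cell cannot be told apart. Of 17 oligodendrocyte and myelin genes, none was called, and 4 had higher values in flight at an unadjusted p below 0.05, against 1.9% of all genes. Cnp, a myelin enzyme, stood at 84.3, 106 and 111 in flight and 57.3, 45.2 and 89.1 on the ground (0.69, adjusted p = 0.27). The myelin protein Mobp had 234, 324 and 329 against 190.4, 148 and 276 (0.56), and the tight junction protein Cldn11 had a log2 change of 0.44. GC-BuOE mouse 2 was the lowest in these 3 and mouse 3 reached or passed a flight mouse, so the groups overlapped. Of the 17 members, 1 was without overlap with flight higher, against 3.71% of all genes. Mbp, the main myelin basic protein gene, did not differ by more than its error (123, 157 and 133 against 118, 138 and 146, 0.04, SE 0.16). The summed level was 1068 to 1403 in flight and 805 to 1323 on the ground, and the median was 0.08, with 0.06 to 0.21 over the settings and the fits without 1 mouse. In saline it was 0.14, with 6 members higher at that p against 3.69% of all genes. Ptgds, which oligodendrocytes also make, was lowest in the same ground mouse, and the part of myelin content in its value was not tested.

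Meningeal and vessel wall genes went in both directions around Ptgds. Of 13 measured, Ptgds was called, Col1a2, a fibrillar collagen chain, stood at 40.0, 28.5 and 25.0 in flight and 18.4, 14.8 and 18.2 on the ground (0.81), and the smooth muscle gene Tagln at 104, 15.1 and 23.8 and 17.3, 23.0 and 21.8 (0.69), where FLT-BuOE mouse 1 stood apart from the other 5. The pericyte receptor Pdgfrb (-0.77) and Igfbp2 (-0.53) were lower, at flight means of 1.16 and 1.28 times the negative control, and the median of the list was -0.19. Its summed level, to which Ptgds contributes most, was 464 to 599 in FLT-BuOE and 328 to 412 in GC-BuOE. Endothelial genes had a median of -0.20: none of 10 was called, and the VEGF receptor genes Flt1 (-0.43) and Kdr (-0.57) and the efflux pump gene Abcb1a (-0.54) had lower values in flight at an unadjusted p below 0.05 (5.27% of all genes). Their summed level was 249 to 280 in flight and 297 to 321 on the ground, without overlap, and the flight means of those 3 genes were 1.75, 1.28 and 1.45 times the negative control. Hba-a1, the hemoglobin alpha gene of red blood cells, stood at 67.2, 52.5 and 37.5 and 59.5, 74.9 and 166 (-0.81), with GC-BuOE mouse 3 the highest. The choroid plexus list had 4 measured members and none at an unadjusted p below 0.05.

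Astrocytes and microglia gave 1 gene at that p. Of 15 astrocyte genes none had an unadjusted p below 0.05, and the median was -0.01. The glutamate transporter Slc1a2 stood at 280.2, 367 and 233 in flight and 256, 360.2 and 220.1 on the ground (0.08), with mouse 2 the highest of each group, and the filament protein Gfap had a log2 change of -0.26. Among 13 microglial genes, the receptor Trem2 was lower (-0.67), with a flight mean of 1.03 times the negative control, and the median was -0.13. The receptor Csf1r, needed for microglial survival, had -0.13.

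Neuronal lists had medians from -0.15 for hippocampal to 0.10 for upper layer genes. Of 9 genes of excitatory cortical neurons none was called; Nrgn, the calmodulin-binding neurogranin, stood at 2179.8, 1737 and 1657 in flight and 1668, 1204 and 1459 on the ground (0.37), and Tbr1, a factor of glutamatergic cortical neurons, at 51.5, 48.9 and 71.3 and 29.2, 53.4 and 34.6 (0.57). Camk2a (0.15) and the vesicular glutamate transporter Slc17a7 (0.04) had smaller log2 changes, neither at that p. In the upper layer list of 8, Cux2, a homeobox factor of those layers, stood at 77.2, 56.0 and 45.0 and 44.3, 32.6 and 25.5 (0.78, adjusted p = 0.369), with the lowest flight mouse just above the highest ground mouse. In the deep layer list of 9, Ccn2, a marker of the deepest layer, had lower values (-0.56) with overlap. None of 13 GABAergic genes, among them Gad1 (-0.12) and Sst (-0.11), and none of 5 hippocampal genes had an unadjusted p below 0.05. Ppp1r1b was the only one of 8 striatal genes at that p, while the dopamine receptor gene Drd1 stood at 22.9, 32.0 and 36.3 and 28.1, 35.6 and 32.7 (-0.10).

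Synaptic genes gave a few differences in each direction and no calls. Among 33 glutamate and GABA receptor subunits 2 were higher and 3 lower at an unadjusted p below 0.05. Of all genes, 1.9% were higher and 5.27% lower at that p, which applies to each list in this paragraph. Grin1, the obligatory NMDA receptor subunit, stood at 317, 324 and 301 in flight and 248, 214 and 205 on the ground (0.50, SE 0.14, adjusted p = 0.355), without overlap. Grin2d, Gabrb1 and Gabrg3 had lower values (-0.50, -0.49 and -0.38). Among 22 synaptic vesicle genes 2 were higher and 1 lower at that p: the small GTPase Rab3a (0.32) and the vesicle protein Sv2b (0.40) were the higher ones, while the SNARE protein Snap25 had a log2 change of 0.22. Of 14 neuropeptide genes, Crh (-0.63) and Adcyap1 (-0.61) had lower values at flight means of 1.35 and 1.37 times the negative control. Of 15 actin and tubulin genes, Tubb4a was higher (0.37) and Tmsb10 and Tubb2b lower (-0.41 and -0.59). The medians of these 4 lists were -0.03, 0.03, -0.10 and -0.09.

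**Figure D5:**
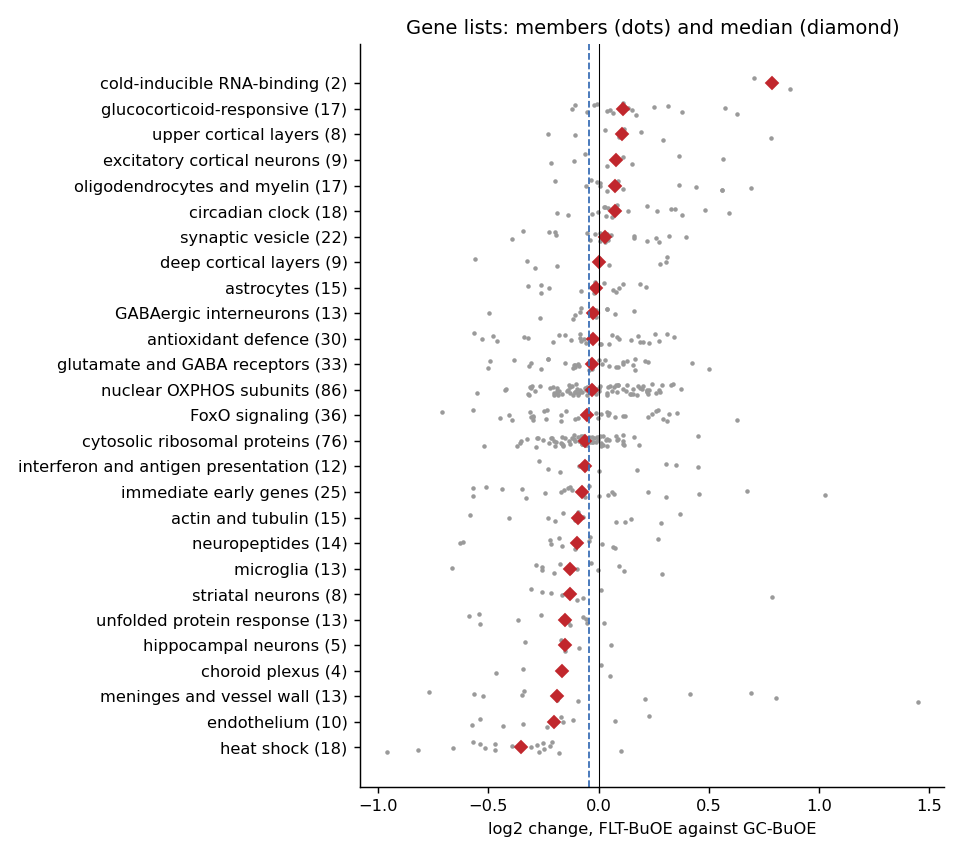
Log2 change of flight against ground under BuOE for the members of each list with at least 2 measured genes (grey dots, number in brackets) with the list's median (red diamond); the dashed line is the median of all genes (-0.04). Heat shock genes have the lowest median (-0.35) and the cold-inducible pair the highest (0.79), and most other lists lie within 0.20 of 0.

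Of 18 circadian clock genes, none was called, 14 had a log2 change above 0 (42.9% of all genes did) and 3 were higher at an unadjusted p below 0.05 (1.9% of all genes). Per1, a repressor of the core clock, stood at 110.1, 114 and 104 in flight and 79.0, 84.5 and 88.2 on the ground (0.38), Per3 at 32.9, 42.7 and 52.5 and 28.1, 31.1 and 23.6 (0.59), and the output factor Dbp at 64.3, 58.7 and 65.0 and 40.0, 57.8 and 38.2 (0.48). All 3 were without overlap, and in all 4 of the 18 were, with flight higher, against 3.71% of all genes. The summed level was 913 to 949 in FLT-BuOE and 805 to 872 in GC-BuOE, and the median was 0.07 (0.06 to 0.25 over the settings and the fits without 1 mouse). The hour at which each mouse was killed is not given in the sources used here. Glucocorticoid-responsive genes had 3 of 17 at that p, all higher (1.9% of all genes): Per1 again, Sgk1 at 54.3, 80.9 and 91.3 and 43.3, 39.3 and 62.8 (0.63, adjusted p = 0.375), and the lipid droplet protein Plin4 (0.57). The glucocorticoid receptor gene Nr3c1 had a log2 change of -0.02, and the median of the list was 0.11. Under saline the median was 0.46, with 2 members called and 9 higher at that p, against 3.69% of all genes. The difference between treatments was not tested for the list.

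Antioxidant defence, the process BuOE mimics, showed no call among 30 genes and a median of -0.02. The cytosolic superoxide dismutase Sod1 stood at 109, 142 and 114 in flight and 115, 148 and 102 on the ground (0.01, 95% interval -0.31 to 0.33), and the mitochondrial Sod2 at 77.2, 99.6 and 65.0 and 75.7, 78.6 and 81.9 (0.01, -0.32 to 0.34). Catalase, Cat, had a log2 change of 0.05 (-0.36 to 0.46), and the lipid peroxidase Gpx4 of 0.20 (-0.10 to 0.49). For these 4 enzymes the interval includes 0, which bounds the difference without showing that the levels were equal. Lower values at an unadjusted p below 0.05 (5.27% of all genes) were found for the thioredoxin reductase Txnrd1 (-0.53), the ER peroxiredoxin Prdx4 (-0.46), the antioxidant master regulator Nfe2l2 (-0.48) and G6pdx (-0.57), which supplies NADPH. Their flight means were 1.65, 1.68, 1.45 and 1.33 times the negative control.

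The remaining lists held no call. FoxO signaling is the pathway the study names for frontal cortex, from genes that differed between FLT-SAL and GC-SAL. Among its 36 genes 1 was higher, Sgk1, and 2 lower, Homer1 and Klf2, at an unadjusted p below 0.05. These shares were near the 1.9% and 5.27% of all genes. Foxo1 had a log2 change of -0.17. In saline 4 of the 36 were higher and 3 lower at that p, against 3.69% and 1.98% of all genes, and 1 was called. Among 86 nuclear genes of oxidative phosphorylation 1 was higher and 3 lower at that p, where 1.9% and 5.27% of all genes were, with a median of -0.03. In saline 11 were higher, against 3.69% of all genes, and the median was 0.15. Among 76 cytosolic ribosomal protein genes 5 were lower at that p, a share near the 5.27% of all genes, and the median was -0.06 against -0.04 over all genes. None of 12 interferon and antigen presentation genes was at that p, and B2m, the light chain of MHC class I, stood at 54.3, 60.5 and 55.0 in flight and 40.0, 43.0 and 50.0 on the ground (0.35).

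The other cortical region, CT, was profiled in the same mice on the same slides and is given for the genes above; the difference between regions was not tested. In CT, 2 genes were called in FLT-BuOE against GC-BuOE (0.0127%), Arc and Cryab, both lower. Arc stood at 203, 169 and 139 in flight and 379, 334 and 302 on the ground (-1.0, adjusted p = 0.00278), and Cryab at 46.5, 47.8 and 43.1 and 103, 109 and 114 (-1.23, adjusted p = 5.01e-05). Both had a negative log2 change in frontal cortex too. Junb in CT stood at 60.7, 83.4 and 77.0 and 77.8, 85.4 and 63.9 (-0.04), with no separation, and Ptgds at 156, 207 and 151 and 125, 85.4 and 160.1 (0.50, adjusted p = 0.576), with overlap. Heat shock genes had a median of -0.32, with 7 of 18 lower at an unadjusted p below 0.05 against 3.5% of all genes, and Rbm3 and Cirbp were 0.59 and 0.42. The myelin list had a median of -0.30 in CT beside 0.08 in frontal cortex.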

How the data were processed

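The 12 frontal cortex AOIs (3 mice in each of FLT-BuOE, GC-BuOE, FLT-SAL and GC-SAL) were fitted together, and the 12 AOIs of CT in a fit of their own. The deposited tables hold upper quartile (Q3) normalized signal per gene, made by the authors with 1 scaling factor for each AOI, so changes are relative to that quartile. The deposited per-sample files hold counts of deduplicated probe tags, written by the GeoMx NGS Pipeline, version 2.3.4 per the file headers. Of 20175 probes, 15779 of the 15782 genes matched exactly 1, and dividing out the scaling gave whole counts within 0.02 for 99.98% of values.

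The main test was limma 3.58.1 (R 4.3.3) on log2(Q3-normalized value + 1), with a group term, trended variances, 8 residual degrees of freedom and Benjamini-Hochberg adjustment over 15782 genes. Calls needed an adjusted p under 0.05 together with more than a 1.5-fold change, except that the interaction had no fold threshold. Adjusted p-values are from this fit unless edgeR 4.0.16 or DESeq2 1.42.0, run on the recovered counts, is named. With 3 mice against 3, an exact permutation test of a single gene cannot go below a two-sided p of 0.1. Total counts ran from 484300 to 1579380, and this depth limits genes near the negative control. In counts simulated for FLT-BuOE against GC-BuOE over 15779 genes, limma called 75% of genes changed by 1 on the log2 scale and 99% of those changed by 2, with 15 false calls beside 200 changed genes. Those false calls were a larger share of the calls than the threshold of 0.05 aims at. The adjustment is stricter when fewer genes change, so the recovered shares do not carry over to a comparison with 3 calls.

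Genes, lists and tests were chosen with earlier results of these data known. Named by rule were called genes without overlap whose higher group mean exceeded 1.5 times the negative control. The 10 next by unadjusted p had to meet the same conditions. Also named were called list members, the genes the study names for frontal cortex and those called in the interaction. Of each list, 2 to 4 members with the highest means were added. Other genes, among them list members at an unadjusted p below 0.05, were named after their values were seen, and a few genes that the rule names are not reported here. Alternatives were other pseudocounts, filters, scalings and tools, a replicate block and leaving out each mouse. Figures were drawn with matplotlib 3.10.9.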

Additional observations from a re-analysis of the deposited data

Results flagged for a closer look

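Junb stood out for a difference between groups under the same contrast: its log2 change of flight against ground in frontal cortex was 1.03 in BuOE mice and -0.39 in saline mice. The limma interaction, the first minus the second, was 1.42 (SE 0.23, adjusted p = 0.0025), with all 3 FLT-BuOE mice above all 3 GC-BuOE mice. No frontal cortex group was large enough for a test of single mice that stand apart.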

How the results depend on the processing

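The 3 calls under BuOE became 0 without the mean-variance trend (1110 genes at an unadjusted p below 0.05) and 1, Junb, with DESeq2 (332 genes at an unadjusted p below 0.05), and leaving out each mouse gave 2 to 6, the 6 without FLT-BuOE mouse 2. The interaction's single call became 0 without the trend, 3 after quantile normalization, 3 with edgeR and 3 with the replicate block, Arc and Col6a1 joining Junb in each (adjusted p = 0.000238 and 0.00543 with the block), and 1 to 3 without a mouse. In saline mice the 8 calls became 17 with only those 6 AOIs, 2 without the trend, 14 after quantile normalization, 4 after background subtraction, 26 with edgeR, 15 with DESeq2 and 19 with the replicate block, and 2 to 18 without a mouse. In CT the 2 calls became 0 without the trend, 7 after quantile normalization and 5 with edgeR, and 1 to 3 without a mouse. The causes were not tested. Of 480 values of single genes under other settings, 456 kept direction and side of the threshold, 20 fell under it, 4 passed it and 0 reversed. The main fit did not treat replicate numbers as pairs. The deviations of same-numbered mice correlated at 0.02 to 0.03 between FLT-BuOE and GC-BuOE, above the -0.04 to 0.01 of differently numbered mice there. Over all group pairs compared, the 12 same-numbered pairs ran from -0.05 to 0.10 and differently numbered ones from -0.06 to 0.05. Whether the number stands for anything that mice shared was not tested. With the number as a block, 3 genes were called under BuOE, Ptgds, Junb and Gm1043. Depth limits genes near the negative control, the slide cannot be told apart from the group, and with 3 mice a group a gene below the threshold is not shown to be equal.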
